A study of Juglans regia with 21 samples.

Results

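The enzymes described here carry phenylalanine into the phenylpropanoid pathway and on to the monolignols, the alcohols from which lignin is built. Genes were taken by product name, in the protein database (NR) or Swiss-Prot column of the deposited table, for 11 enzyme families, among them phenylalanine ammonia-lyase (PAL), cinnamate 4-hydroxylase (C4H), 4-coumarate--CoA ligase (4CL), hydroxycinnamoyl transferase (HCT), coumaroyl shikimate 3'-hydroxylase (C3'H), caffeoylshikimate esterase (CSE), caffeoyl-CoA O-methyltransferase (CCoAOMT), ferulate 5-hydroxylase (F5H), cinnamoyl-CoA reductase (CCR) and cinnamyl alcohol dehydrogenase (CAD). Members numbered 103 of 31425 genes, after 13 genes that Swiss-Prot names 4-coumarate--CoA ligase-like were left out, 3 of which have a 4CL name without that ending in NR. Among them were 4 PAL, 5 C4H, 6 4CL, 8 HCT, 4 C3'H, 9 CSE, 7 CCoAOMT, 2 F5H, 19 CCR and 18 CAD genes. The rule uses names alone and no measured value.

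PAL removes ammonia from phenylalanine, C4H hydroxylates the resulting cinnamic acid and 4CL joins the product to coenzyme A, and this entry is shared with flavonoids, tannins and other phenolics. HCT, C3'H and CSE then add a hydroxyl group by way of a shikimate ester, CCoAOMT and F5H decorate the ring, and CCR and CAD reduce the side chain to the alcohol. In seed coats these products can end in lignin of the wall or, by the branch at chalcone synthase, in flavonoids and condensed tannins. A walnut pellicle is the thin skin that encloses the kernel, a seed coat known for its phenolics.

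Pellicles of the walnut (Juglans regia) cultivar Xinwen179, field-grown in Aksu, were sequenced as poly(A) RNA at 8, 9, 11, 13, 15, 17 and 19 weeks after pollination, written 8W to 19W, with 3 libraries per stage and 21 in all. All groups share the cultivar, the site and the tissue, and differ in stage. The library protocol in the labels counts 16 libraries, and every one of the 21 labelled samples was used. The labels do not tell whether replicates are separate trees, so a p-value here speaks only of library-to-library spread, part or all of it possibly technical.

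Library totals ran from 13144713 to 17878761 reads, and all 21 libraries had their closest match, by correlation, within their stage. Levels are FPKM recomputed from the deposited counts with library sizes scaled by edgeR's TMM factors (scaled FPKM), a scale that divides by gene length and so allows genes to be compared. A gene was called changed at an adjusted p under 0.05 in edgeR's quasi-likelihood test, with Benjamini-Hochberg adjustment over 21707 genes tested. Genes taken as seed coat markers by product name, 31 in the list, summed to 352 ± 6.46 scaled FPKM at 8W (SD, n = 3), 149 ± 8.88 at 17W and 210.3 ± 21.04 at 19W. Several are TRANSPARENT TESTA 12 by NR but DETOXIFICATION 24, 27, 29 or 33 by Swiss-Prot. The list may therefore hold genes not particular to the seed coat. The anthocyanidin reductase gene Jr5DG00075400, of tannin synthesis, went against the list's sum between 8W and 19W, with 21.4 ± 0.812 scaled FPKM at 8W, 17.2 ± 0.258 at 17W and 83.9 ± 14.5 at 19W. Storage protein and oleosin genes of embryo and kernel, 16 in the list, summed to 154 ± 52.4 scaled FPKM at 8W (SD, n = 3), 11400.0 ± 4778 at 11W and 11370.0 ± 1255 at 19W. This sum did not stay high in between: its lowest mean after 9W, 3573 ± 978 (SD), belonged to the 17W libraries. Replicates also spread widely, from 8124 to 16880 among 11W libraries and from 2861 to 9045 among 13W libraries. In tissue of mixed cells, fewer cells of a type and less RNA per cell cannot be told apart, and the part of kernel RNA in the results below was not tested.

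The names rest on sequence likeness. Among the 103 members 45 were named to their family by both columns, 52 by Swiss-Prot alone and 6 by NR alone, and no member had columns that named different families among the 11. A column that names none of the 11 may name another enzyme: Swiss-Prot calls the CCR gene Jr7DG00007100 a putative anthocyanidin reductase. A KEGG enzyme number of the same family stood beside 69 members, which included all PAL, C4H, 4CL, C3'H, CCoAOMT, F5H and CAD genes, 3 of 8 HCT genes and 2 of 19 CCR genes. The other 17 CCR and 5 HCT genes carried no KEGG number. Of 9 CSE genes 8 carried K01054, the number of a lipase of acylglycerols, and none a number for CSE. Members sat on D chromosomes in 63 cases and on S chromosomes in 40, the paired chromosome sets of the walnut genome, against 18179 and 13107 of all genes. Within 100 kb of another member lay 51 members, in 16 clusters.

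Of 103 members 66 had enough reads to be tested, and 37 did not. Of these 37, 14 had no read in any library and 23 had between 1 read and 92 reads over all 21 libraries. Those tested included 3 for PAL, 3 for C4H, 6 for 4CL, 4 for HCT, 2 for C3'H, 9 for CSE, 4 for CCoAOMT, 0 for F5H, 16 for CCR and 12 for CAD. A gene high at 1 stage alone passes such a filter through that stage, so counts below are read only against the same share of all genes tested.

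Summed by family, the members followed no common course. PAL, C3'H and 4CL had their highest mean sum at 9W, C4H and CCoAOMT at 8W, HCT at 15W, CSE and F5H at 17W, and CCR and CAD at 19W. All 103 members together summed to 977 ± 17.99 scaled FPKM at 8W and 1266 ± 22.2 at 19W (SD, n = 3), with the lowest sum, 883 ± 37.98, at 11W. Genes named CCR, most of them without the KEGG number of CCR, made up much of this total, at 400.4 ± 18.2 at 8W and 569.5 ± 3.599 at 19W. F5H made up almost none of it, at 0.528 ± 0.284 at its highest.

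**Figure D1:**
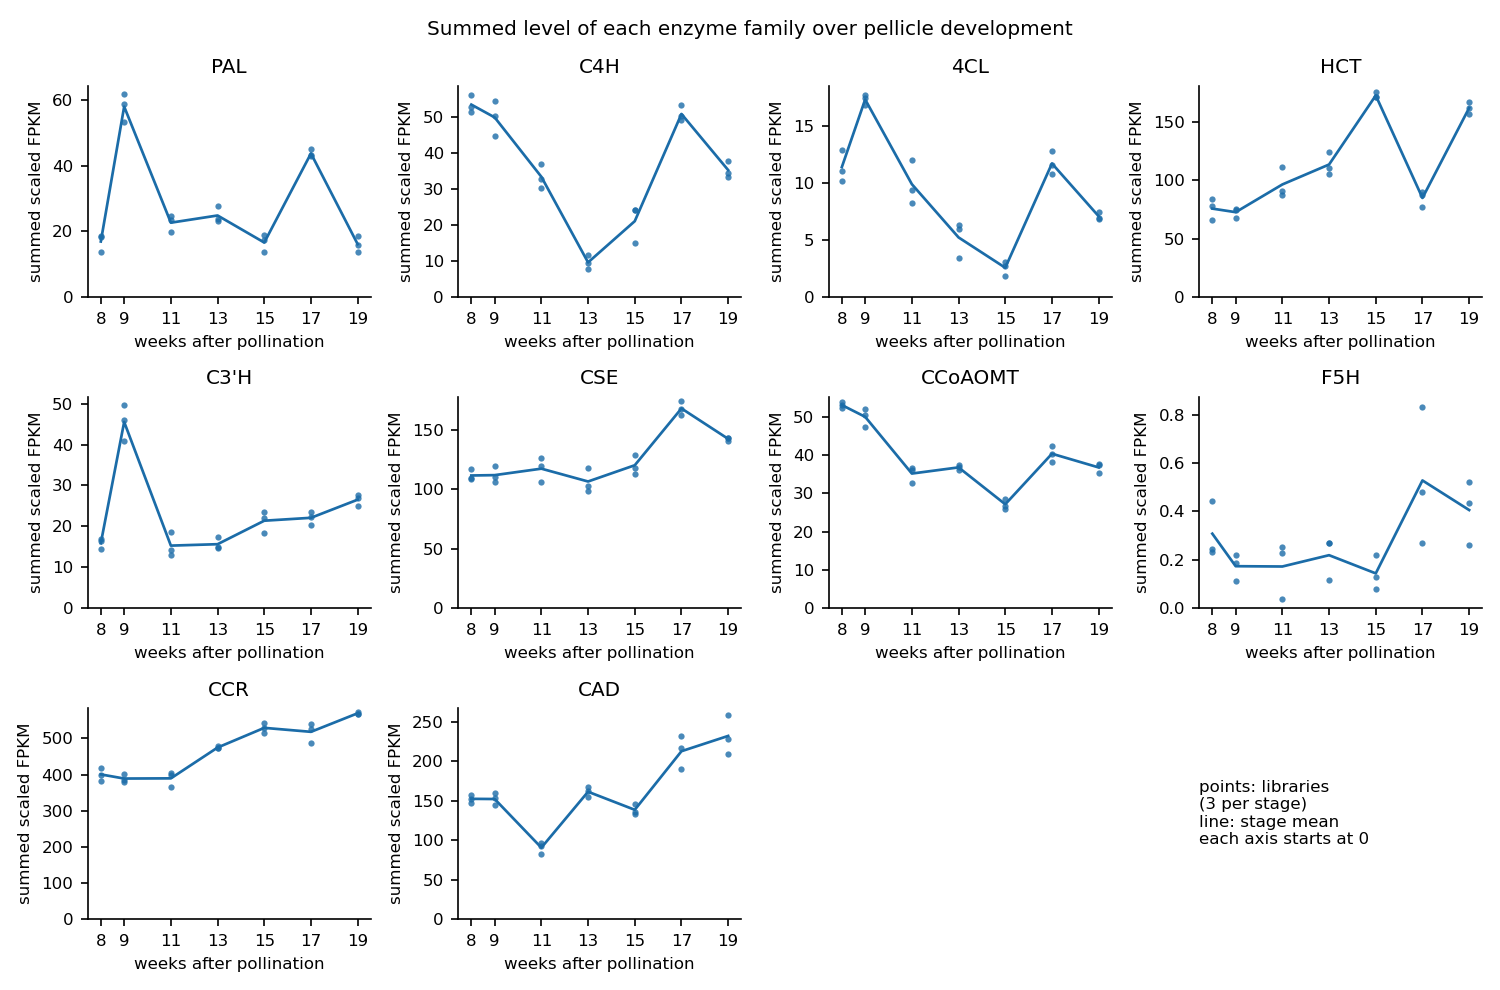
Summed scaled FPKM of each of 10 enzyme families (vertical axes, each from 0) against weeks after pollination; points are the 3 libraries of a stage and lines join stage means. PAL stands at 57.98 at 9W and 43.7 at 17W with lower values between, C4H dips to 9.65 at 13W, and CCR and CAD are highest at 19W.

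PAL, the first enzyme of the pathway, had a pair of peaks. The family summed to 16.9 ± 2.67, 57.98 ± 4.38, 22.6 ± 2.63, 24.8 ± 2.47, 16.6 ± 2.67, 43.7 ± 1.17 and 16.1 ± 2.49 scaled FPKM in stage order (SD, n = 3). Its highest member, Jr1SG00166300 (chromosome 1S, 27595658 to 27600783), carried both peaks: it had 5.51, 4.41 and 2.88 at 8W, 45.1, 31.7 and 37.4 at 9W, and 5.65, 7.21 and 7.001 at 11W scaled FPKM. Jr1SG00166300 then had 3.34, 2.797 and 6.12 at 13W, 1.79, 4.904 and 3.76 at 15W, 33.03, 33.9 and 32.1 at 17W, and 5.32, 4.65 and 4.27 at 19W scaled FPKM. The 6 libraries of 9W and 17W all lay above the 15 of the other stages, with no overlap. From 8W to 9W it rose by 3.16 ± 0.28 log2 units (SE, edgeR, adjusted p = 5.48e-08), then fell by 2.52 ± 0.27 log2 units (SE, edgeR, adjusted p = 4.87e-07). A second rise of 3.23 ± 0.30 (SE) from 15W to 17W (edgeR, adjusted p = 9.07e-08) was followed by a fall of the like size, as from 17W to 19W it fell by 2.80 ± 0.29 log2 units (SE, edgeR, adjusted p = 5.17e-07). Its 8W and 19W libraries overlapped (log2 change 0.16 ± 0.32 (SE), edgeR, adjusted p = 0.664).

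The other PAL genes did not share the 17W peak. Jr5DG00165400 (chromosome 5D, 26009051 to 26013568) had 7.71, 8.01 and 6.12 at 8W, 5.03, 10.4 and 8.55 at 9W, and 9.77, 12.5 and 11.2 at 11W scaled FPKM. Jr5DG00165400 then had 18.5, 19.6 and 20.3 at 13W, 10.3, 11.7 and 11.1 at 15W, 9.095, 7.24 and 8.59 at 17W, and 7.25, 10.3 and 7.01 at 19W scaled FPKM. All 3 of its 13W libraries lay above all others, at the stage where 16.4% of the family sum came from Jr1SG00166300. From 11W to 13W this gene rose by 0.80 ± 0.19 log2 units (SE, edgeR, adjusted p = 0.000922), and from 13W to 15W it fell by 0.82 ± 0.19 log2 units (SE, edgeR, adjusted p = 0.00128). Jr1DG00277000 (chromosome 1D, 48531485 to 48535935) was highest at 9W, with 11.7, 11.1 and 12.9 scaled FPKM against 5.38, 5.796 and 4.79 at 8W and 1.33, 1.26 and 1.21 at 13W. It rose by 1.16 ± 0.16 log2 units (SE, edgeR, adjusted p = 8.84e-07) from 8W to 9W and fell by 1.94 ± 0.19 log2 units (SE, edgeR, adjusted p = 6.03e-09) from 11W to 13W. At 17W, with 2.95, 1.99 and 2.25, its libraries overlapped those of 15W (log2 change 0.20 ± 0.20 (SE), edgeR, adjusted p = 0.4).

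C4H, the cytochrome P450 that follows PAL, was lowest at 13W. The family summed to 53.6 ± 2.48, 50 ± 4.83, 33.5 ± 3.46, 9.65 ± 1.89, 21.1 ± 5.19, 50.96 ± 2.16 and 35.3 ± 2.34 scaled FPKM in stage order (SD, n = 3), of which Jr7SG00052000 (chromosome 7S, 5524769 to 5528459) supplied 86.5% over all libraries. That gene had 39.6, 44.8 and 42.96 at 8W, 40.6, 32 and 36.8 at 9W, and 28.1, 34.9 and 29.4 at 11W scaled FPKM. Jr7SG00052000 then had 7.41, 8.77 and 10.2 at 13W, 14.6, 23.1 and 23.01 at 15W, 49.1, 47.9 and 47.2 at 17W, and 34.7, 31.8 and 32.7 at 19W scaled FPKM, and its 13W libraries lay below all others. From 11W to 13W it fell by 1.81 ± 0.15 log2 units (SE, edgeR, adjusted p = 1.58e-09), and it then rose by 1.20 ± 0.15 log2 units (SE, edgeR, adjusted p = 1.36e-06) and rose by 1.25 ± 0.14 log2 units (SE, edgeR, adjusted p = 1.51e-07) over the next steps. Between 8W and 19W it fell by 0.36 ± 0.13 log2 units (SE, edgeR, adjusted p = 0.0186), a call that was lost without 8W replicate 2 (edgeR, adjusted p = 0.0618).

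The next C4H gene was hardly read after 11W. Jr7DG00059300 (chromosome 7D, 5694555 to 5697343) had 8.55, 8.78 and 7.59 at 8W, 11.5, 9.73 and 11.4 at 9W, and 0.9698, 1.22 and 1.88 at 11W scaled FPKM. Jr7DG00059300 then had 0, 0.0452 and 0.0893 at 13W, 0.04897, 0.272 and 0.1901 at 15W, 0, 0 and 0 at 17W, and 0.0525, 0.1498 and 0 at 19W scaled FPKM. Every library of 8W and 9W was above every later one, and 17W had no read. From 9W to 11W it fell by 2.99 ± 0.26 log2 units (SE, edgeR, adjusted p = 1.25e-09), and between 8W and 19W it fell by 6.83 ± 0.43 log2 units (SE, edgeR, adjusted p = 2.41e-12). Without 19W replicate 2 the latter change was -8.12. The gene has 4 reads over the 19W libraries, and shares bases with the C4H models Jr7DG00059200 and Jr7DG00059400 on the opposite strand, which had 7 and 4 reads in all. Another tested C4H gene in the same cluster, Jr7DG00059500, named after its values were seen, had 2.65 ± 0.3902 scaled FPKM at 8W and 2.89 ± 1.21 at 17W (SD, n = 3). It did not stay level in between: a fall was called from 9W to 11W and a rise from 15W to 17W.

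4CL, which activates the acids as coenzyme A esters, stood low throughout. Its 6 genes, all tested, summed to 11.4 ± 1.39, 17.3 ± 0.437, 9.88 ± 1.92, 5.22 ± 1.596, 2.57 ± 0.637, 11.7 ± 1.03 and 7.08 ± 0.294 scaled FPKM in stage order (SD, n = 3). Jr4DG00189200 (chromosome 4D, 31698351 to 31703269) had 1.86, 1.65 and 1.99 at 8W, 4.103, 3.96 and 4.21 at 9W, and 1.84, 3.52 and 2.91 at 11W scaled FPKM. Jr4DG00189200 then had 4.15, 4.27 and 1.69 at 13W, 0.496, 0.796 and 0.481 at 15W, 5.59, 5.14 and 4.07 at 17W, and 4.25, 4.45 and 4.47 at 19W scaled FPKM, with the 15W libraries below all others. From 13W to 15W it fell by 2.50 ± 0.31 log2 units (SE, edgeR, adjusted p = 6.6e-07) and from 15W to 17W it rose by 3.04 ± 0.31 log2 units (SE, edgeR, adjusted p = 1.3e-08). Jr1DG00047600 (chromosome 1D, 6148080 to 6159969) was high early, from 5.56, 4.46 and 4.47 scaled FPKM at 8W to 0.191, 0.455 and 0.2702 at 19W without overlap. It fell by 3.96 ± 0.33 log2 units (SE, edgeR, adjusted p = 8.59e-11). From 8W to 19W 2 of the 6 rose and 2 fell, beside 39.0% and 38.8% of all genes tested. The number that rose was 1 under 9 of the alternatives tried, for 1 of which 5 genes were tested.

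HCT, which moves the coumaroyl group to shikimate and back, was among the more abundant families and was carried by 1 gene. The sum was 75.8 ± 9.28, 72.8 ± 4.43, 96.5 ± 13, 114 ± 9.74, 173 ± 2.28, 84.95 ± 6.75 and 162 ± 4.97 scaled FPKM in stage order (SD, n = 3), with 87.5% from Jr1DG00263900 (chromosome 1D, 47083507 to 47091200). That gene had 53.6, 63.95 and 72.5 at 8W, 56.6, 61.2 and 62.01 at 9W, and 63.5, 71.6 and 90.2 at 11W scaled FPKM. Jr1DG00263900 then had 108, 103 and 120.5 at 13W, 169, 164 and 165 at 15W, 53.95, 67.7 and 64 at 17W, and 142, 141 and 149.8 at 19W scaled FPKM. Its 15W libraries lay above all others, and those of 17W lay below both neighbouring stages. It fell by 1.42 ± 0.11 log2 units (SE, edgeR, adjusted p = 5.88e-10) from 15W to 17W, then rose by 1.22 ± 0.11 log2 units (SE, edgeR, adjusted p = 9.91e-09) from 17W to 19W. Between 8W and 19W it rose by 1.18 ± 0.11 log2 units (SE, edgeR, adjusted p = 3.07e-09).

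The HCT gene on chromosome 1S went against it at 3 steps. Jr1SG00157700 (chromosome 1S, 26803177 to 26807306) had 10.9, 11.8 and 9.69 at 8W, 10.2, 12.1 and 13 at 9W, and 21.9, 17.8 and 20.4 at 11W scaled FPKM. Jr1SG00157700 then had 2.21, 2.07 and 3.46 at 13W, 6.32, 7.08 and 5.86 at 15W, 22.8, 22.3 and 22.4 at 17W, and 19.03, 14.8 and 15.7 at 19W scaled FPKM, lowest in all 3 libraries of 13W. From 11W to 13W it fell by 2.95 ± 0.16 log2 units (SE, edgeR, adjusted p = 1.94e-13), where Jr1DG00263900 rose by 0.56 ± 0.11 log2 units (SE, edgeR, adjusted p = 0.000141). From 15W to 17W it rose by 1.81 ± 0.14 log2 units (SE, edgeR, adjusted p = 2.01e-10), and from 17W to 19W it fell by 0.45 ± 0.13 log2 units (SE, edgeR, adjusted p = 0.00702), at both steps against the direction of Jr1DG00263900. Its rise of 0.61 between 8W and 19W (edgeR, adjusted p = 0.000339) was 0.27 with library sizes alone as scaling and no longer passed (edgeR, adjusted p = 0.0702).

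C3'H, the P450 that hydroxylates the shikimate ester, was expressed from 2 tested genes on chromosomes 5S and 5D that diverged late. Jr5SG00041100 (chromosome 5S, 3849644 to 3853259) had 10.5, 9.89 and 8.88 at 8W, 31.6, 39.6 and 34.95 at 9W, and 5.15, 7.701 and 7.82 at 11W scaled FPKM. Jr5SG00041100 then had 8.498, 7.42 and 8.001 at 13W, 14.5, 11.2 and 13.9 at 15W, 4.495, 4.88 and 4.898 at 17W, and 4.41, 4.87 and 3.202 at 19W scaled FPKM, with the 9W libraries above all others. It rose by 1.86 ± 0.14 log2 units (SE, edgeR, adjusted p = 3.4e-11) from 8W to 9W, fell by 2.36 ± 0.14 log2 units (SE, edgeR, adjusted p = 9.26e-13) from 9W to 11W and fell by 1.47 ± 0.15 log2 units (SE, edgeR, adjusted p = 1.56e-08) from 15W to 17W. Jr5DG00047600 (chromosome 5D, 4677268 to 4688046) had 6.47, 6.43 and 5.47 at 8W, 7.25, 8.14 and 9.66 at 9W, and 5.79, 4.18 and 4.32 at 11W scaled FPKM. Jr5DG00047600 then had 8.06, 7.19 and 6.52 at 13W, 9.11, 7.25 and 8.22 at 15W, 19.1, 17.1 and 15.5 at 17W, and 22.6, 22.7 and 21.8 at 19W scaled FPKM, and its 19W libraries lay above those of every other stage. From 15W to 17W, where its partner fell, it rose by 1.07 ± 0.13 log2 units (SE, edgeR, adjusted p = 1.51e-07).

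Over the whole course the 5S gene fell by 1.23 ± 0.16 log2 units (SE, edgeR, adjusted p = 1.63e-07) and the 5D gene rose by 1.87 ± 0.13 log2 units (SE, edgeR, adjusted p = 3.82e-12). The 5S gene made up 77.7% of the family sum at 9W and 15.7% at 19W. The span of the 5D model shares 7471 bases with that of Jr5DG00047700 on the opposite strand, itself named C3'H, with 80 reads in all. It also shares 167 bases at its end with Jr5DG00047800 on the opposite strand, a gene with 37860 reads in all against 6034 for the C3'H gene, and whether counting used strand is not given in the sources used here. The part of that overlap was not tested.

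**Figure D2:**
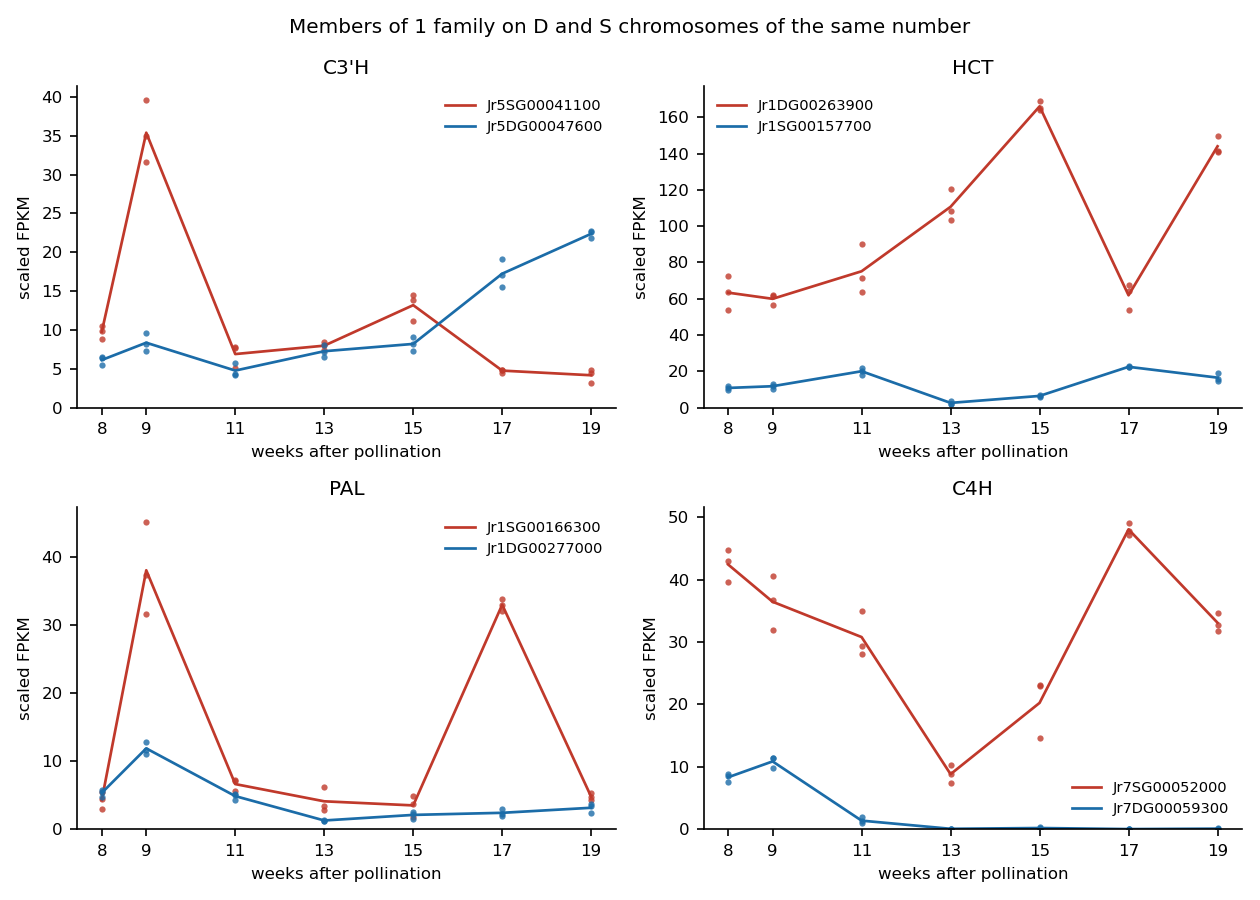
Scaled FPKM (vertical axes, from 0) against weeks after pollination for 4 families, each with a member on a D and a member on an S chromosome of the same number; points are libraries, 3 per stage, and lines join stage means. In the C3'H panel the 5S gene is at 35.4 at 9W and 4.16 at 19W, where the 5D gene is at 22.4.

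CSE hydrolyses caffeoyl shikimate, and its 9 named genes summed to between 106 ± 9.96 scaled FPKM at 13W and 168 ± 5.75 at 17W (SD, n = 3). Beneath that narrow range single genes moved widely. Jr2DG00056100 (chromosome 2D, 4882723 to 4887110) had 20.5, 22.8 and 21.6 at 8W, 20.1, 20.2 and 22.5 at 9W, and 53.4, 61.1 and 64.7 at 11W scaled FPKM. Jr2DG00056100 then had 23.5, 21.2 and 23.3 at 13W, 53.8, 48.8 and 48.2 at 15W, 35.1, 34.9 and 44.01 at 17W, and 48.1, 46.6 and 48.5 at 19W scaled FPKM, and from 9W to 11W it rose by 1.51 ± 0.09 log2 units (SE, edgeR, adjusted p = 7.73e-13). Jr4DG00120000 (chromosome 4D, 23652702 to 23657148), named by Swiss-Prot alone and without a KEGG number, had 49.6, 54.5 and 50.2 at 8W, 57.4, 65.8 and 51.7 at 9W, and 6.76, 8.85 and 8.06 at 11W scaled FPKM. Jr4DG00120000 then had 30.8, 28.7 and 36.5 at 13W, 7.13, 7.03 and 8.32 at 15W, 24.4, 24.6 and 24.1 at 17W, and 15.4, 16.2 and 15.6 at 19W scaled FPKM. Its 11W and 15W libraries lay below those of all other stages.

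At the same step at which Jr2DG00056100 rose, Jr4DG00120000 fell by 2.88 ± 0.11 log2 units (SE, edgeR, adjusted p = 5.62e-16). It also fell by 2.09 ± 0.12 log2 units (SE, edgeR, adjusted p = 8.31e-13) from 13W to 15W, and over the whole course it fell by 1.71 ± 0.11 log2 units (SE, edgeR, adjusted p = 5.06e-13). Jr1SG00171800 (chromosome 1S, 28158479 to 28161424) was a late gene: it had 1.49, 0.758 and 1.14 at 8W, 0.986, 0.904 and 1.08 at 9W, and 1.31, 2.03 and 1.69 at 11W scaled FPKM. Jr1SG00171800 then had 1.25, 0.896 and 0.9402 at 13W, 2.49, 2.14 and 3.06 at 15W, 18.2, 21.3 and 16.8 at 17W, and 9.69, 11.1 and 11.9 at 19W scaled FPKM, and all 6 libraries of 17W and 19W lay above the 15 earlier ones. It rose by 2.87 ± 0.20 log2 units (SE, edgeR, adjusted p = 1.19e-11) from 15W to 17W and rose by 3.26 ± 0.22 log2 units (SE, edgeR, adjusted p = 1.55e-12) between 8W and 19W. Between 8W and 19W, 6 of 9 tested CSE genes rose and 2 fell, beside 39.0% and 38.8% of all genes tested.

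CCoAOMT, which methylates caffeoyl-CoA, summed to 53.1 ± 0.691, 50.03 ± 2.44, 35.2 ± 2.14, 36.8 ± 0.648, 27.2 ± 1.32, 40.4 ± 2.02 and 36.8 ± 1.26 scaled FPKM in stage order (SD, n = 3). Its leading gene moved little: Jr2SG00155300 (chromosome 2S, 29559672 to 29563627) had 16.2, 14.8 and 16.7 scaled FPKM at 8W and 20.8, 25.5 and 23.7 at 19W, and of 6 steps it was called at 1. Between 8W and 19W it rose by 0.55 ± 0.10 log2 units (SE, edgeR, adjusted p = 2.22e-05), or by 0.22 with library sizes alone as scaling (edgeR, adjusted p = 0.0536). Jr3SG00170700 (chromosome 3S, 27873159 to 27875929) had 17.1, 17.8 and 15.5 at 8W, 10.8, 13.4 and 12.9 at 9W, and 12.1, 11.6 and 10.8 at 11W scaled FPKM. Jr3SG00170700 then had 4.61, 6.42 and 5.05 at 13W, 1.19, 3.09 and 3.07 at 15W, 6.14, 6.74 and 6.75 at 17W, and 3.75, 4.32 and 5.301 at 19W scaled FPKM, with no overlap between 8W and 19W. It fell by 1.91 ± 0.19 log2 units (SE, edgeR, adjusted p = 3.12e-09), and of the 4 tested genes 1 rose and 3 fell, beside 39.0% and 38.8% of all genes tested.

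F5H, the enzyme that opens the way to syringyl lignin, was barely read. Jr4SG00134900 (chromosome 4S, 24257647 to 24259871) had 92 reads over all 21 libraries and Jr4DG00059200 (chromosome 4D, 7950136 to 7952765) had 58. The sum of both ran from 0.0366 scaled FPKM in the lowest library, of 11W, to 0.833 in the highest, of 17W, and neither gene was tested.

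Genes named CCR, the first reductive step, had the highest sum of any family at every stage, from 389 scaled FPKM at 9W to 569.5 at 19W. Most of that sum came from genes without the KEGG number of CCR. The 2 genes with it, Jr1DG00262100 and Jr1SG00156900, had 16.3 and 0.0437 at 8W and 49.1 and 0.153 at 19W. The rank of the family thus rests on names. One gene without a KEGG number, Jr7SG00057300 (chromosome 7S, 6118661 to 6121473), gave 47.1% of the family sum. That gene had 203, 194 and 213 at 8W, 169, 159.8 and 160.5 at 9W, and 184, 199 and 202 at 11W scaled FPKM. Jr7SG00057300 then had 213, 207 and 222 at 13W, 249.9, 238 and 243 at 15W, 240.1, 262 and 253 at 17W, and 277, 264 and 269 at 19W scaled FPKM, with 9W below every other stage. It fell by 0.32 ± 0.06 log2 units (SE, edgeR, adjusted p = 4.95e-05) from 8W to 9W and rose by 0.41 ± 0.06 log2 units (SE, edgeR, adjusted p = 8.87e-07) between 8W and 19W. With library sizes alone as scaling the latter was 0.07 and did not pass (edgeR, adjusted p = 0.23). The next gene, Jr7DG00041800 (chromosome 7D, 3891590 to 3894519), had 49.1 ± 5.31 scaled FPKM at 8W, 30.6 ± 0.679 at 17W and 44.7 ± 2.52 at 19W (SD, n = 3), and its 8W to 19W difference did not pass (log2 change -0.14 ± 0.08 (SE), edgeR, adjusted p = 0.122). It passed as a fall in 4 alternatives: edgeR gave -0.47 with library sizes alone (adjusted p = 1.25e-05), -0.34 with upper-quartile factors (adjusted p = 0.000469), and -0.22 without 19W replicate 2 (adjusted p = 0.0352) and without 8W replicate 2 (adjusted p = 0.0159).

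A pair of CCR genes on chromosomes 6S and 6D had their lowest libraries at 8W. Jr6SG00075100 (chromosome 6S, 18108744 to 18111465) had 2.09, 1.09 and 0.831 at 8W, 44.3, 22.9 and 34.7 at 9W, and 13.7, 17.1 and 20.9 at 11W scaled FPKM. Jr6SG00075100 then had 22.4, 28.3 and 14.9 at 13W, 12.6, 11.6 and 13.8 at 15W, 7.402, 6.27 and 5.69 at 17W, and 24.4, 26.4 and 22.4 at 19W scaled FPKM, all 8W libraries below all others. It rose by 4.67 ± 0.33 log2 units (SE, edgeR, adjusted p = 2.13e-09) from 8W to 9W, rose by 1.92 ± 0.28 log2 units (SE, edgeR, adjusted p = 1.96e-05) from 17W to 19W and rose by 4.19 ± 0.34 log2 units (SE, edgeR, adjusted p = 4.74e-09) between 8W and 19W. Jr6DG00104500 (chromosome 6D, 25768775 to 25771880), named after its values were seen, had 8.196, 8.04 and 8.65 at 8W, 29.9, 28.1 and 26.8 at 9W, and 15.9, 13.2 and 14.03 at 11W scaled FPKM. Jr6DG00104500 then had 40.8, 37.3 and 40.7 at 13W, 25.6, 26.4 and 28.2 at 15W, 25.9, 21.7 and 22.2 at 17W, and 35.98, 33.9 and 36.3 at 19W scaled FPKM and rose by 1.77 ± 0.09 log2 units (SE, edgeR, adjusted p = 3.42e-14) from 8W to 9W.

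Other CCR genes fell early or rose late. Jr2SG00025400 (chromosome 2S, 2104041 to 2107782) had 17.4, 20.8 and 21.01 at 8W, 12.9, 12.8 and 12.9 at 9W, and 6.86, 6.35 and 9.09 at 11W scaled FPKM. Jr2SG00025400 then had 6.21, 8.11 and 7.35 at 13W, 2.77, 3.59 and 3.46 at 15W, 3.46, 4.03 and 3.41 at 17W, and 3.17, 3.92 and 3.27 at 19W scaled FPKM, highest in the 3 libraries of 8W, and fell by 2.51 ± 0.14 log2 units (SE, edgeR, adjusted p = 5.87e-14) between 8W and 19W. Jr3SG00037300 (chromosome 3S, 4858648 to 4861545) had 12.5, 13.3 and 14.2 at 8W, 16.7, 12.97 and 16.1 at 9W, and 3.75, 5.29 and 4.19 at 11W scaled FPKM. Jr3SG00037300 then had 11.3, 11.1 and 10.2 at 13W, 63.8, 46.6 and 54.99 at 15W, 53.95, 58.3 and 32.4 at 17W, and 33.8, 36.9 and 37.9 at 19W scaled FPKM, with the 9 libraries of 15W to 19W above the 12 earlier ones. It rose by 2.34 ± 0.17 log2 units (SE, edgeR, adjusted p = 5.62e-10) from 13W to 15W. Jr7DG00007100 (chromosome 7D, 717345 to 720768), a short model of 453 bases that is also in the seed coat list by its product name, was highest at 8W, with 42.5, 42.6 and 41.03 scaled FPKM against 15.4, 19.3 and 13.4 at 9W, where it fell by 1.39 ± 0.18 log2 units (SE, edgeR, adjusted p = 4.18e-07). Over the whole course rises were called for 9 of 16 tested CCR genes and falls for 6, beside 39.0% and 38.8% of all genes tested.

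CAD, which makes the alcohols, was lowest as a family at 11W, with 90.5 ± 7.52 scaled FPKM, and highest at 19W, with 232 ± 24.7 (SD, n = 3). Jr3DG00011500 (chromosome 3D, 1088178 to 1090698) had 50.1, 45.5 and 46.4 at 8W, 71.6, 80.8 and 84.4 at 9W, and 14.98, 16.6 and 17.97 at 11W scaled FPKM. Jr3DG00011500 then had 73.7, 65.5 and 71.1 at 13W, 32.03, 39.7 and 37.5 at 15W, 98.7, 94.9 and 98.9 at 17W, and 84.9, 64.8 and 69.3 at 19W scaled FPKM, and its 11W libraries lay below all others. It fell by 2.26 ± 0.10 log2 units (SE, edgeR, adjusted p = 3.79e-15) from 9W to 11W and rose by 2.09 ± 0.10 log2 units (SE, edgeR, adjusted p = 1.67e-14) from 11W to 13W. Jr2DG00117300 (chromosome 2D, 12558475 to 12565214) had 43.8, 45.7 and 47.7 at 8W, 24.8, 20.5 and 25.9 at 9W, and 48.9, 46.5 and 32.5 at 11W scaled FPKM. Jr2DG00117300 then had 28.2, 30.3 and 22.03 at 13W, 48.4, 46.9 and 53.1 at 15W, 43.3, 44.1 and 26.96 at 17W, and 80.5, 68.9 and 65.98 at 19W scaled FPKM. At 9W, where Jr3DG00011500 rose by 0.74 ± 0.09 log2 units (SE, edgeR, adjusted p = 2.1e-07) from 8W, this gene fell by 0.94 ± 0.18 log2 units (SE, edgeR, adjusted p = 0.000183).

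A cluster of 6 CAD models on chromosome 4S, from 9108755 to 9285400, held a pair of genes that stood low before 13W. Jr4SG00085500 (chromosome 4S, 9176154 to 9177174) had 0.436, 0 and 0.165 at 8W, 0.143, 0.07796 and 0.327 at 9W, and 0.494, 0.189 and 2.01 at 11W scaled FPKM. Jr4SG00085500 then had 19, 22.2 and 17.6 at 13W, 5.49, 7.12 and 5.86 at 15W, 12.3, 10.2 and 5.899 at 17W, and 18.7, 17.9 and 9.09 at 19W scaled FPKM and was highest at 13W. Jr4SG00085800 (chromosome 4S, 9211369 to 9213342) had 0.513, 0.538 and 0.486 at 8W, 0.2099, 0.0573 and 0.0601 at 9W, and 0.363, 1.73 and 0.844 at 11W scaled FPKM. Jr4SG00085800 then had 4.99, 5.51 and 5.37 at 13W, 6.05, 3.59 and 5.01 at 15W, 10.4, 8.597 and 8.07 at 17W, and 12.9, 16.4 and 12.5 at 19W scaled FPKM and was highest at 19W. In both, every 8W and 9W library lay below every library from 13W on. Jr4SG00085500 rose by 4.43 ± 0.46 log2 units (SE, edgeR, adjusted p = 5.39e-08) from 11W to 13W and fell by 1.67 ± 0.36 log2 units (SE, edgeR, adjusted p = 0.000632) from 13W to 15W, and between 8W and 19W it rose by 6.15 ± 0.59 log2 units (SE, edgeR, adjusted p = 6.97e-09), while Jr4SG00085800 rose by 4.74 ± 0.33 log2 units (SE, edgeR, adjusted p = 4.28e-12). Leaving out 1 library moved the larger of these: Jr4SG00085500 stood at 7.22 without 8W replicate 1, and its 13W change at 5.78 without 11W replicate 3.

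The neighbours Jr4SG00086000, Jr4SG00085700 and Jr4SG00085600, named here for their place in the cluster after their values were seen, had 0, 24 and 8 reads over the 8W libraries. Jr4SG00086000 reached 18.9 ± 3.65 scaled FPKM at 19W (SD, n = 3), at least 37.15-fold higher than the floor of 3 reads per library at 8W. Jr4SG00085700 rose by 3.60 ± 0.44 log2 units (SE, edgeR, adjusted p = 7.98e-08) and Jr4SG00085600 rose by 3.72 ± 0.69 log2 units (SE, edgeR, adjusted p = 3.18e-05) between 8W and 19W, the latter by 4.98 without 8W replicate 1 and by 3.13 without 8W replicate 3. The tested models are 357 to 947 bases long, and reads of near-identical copies may have been split among them, so the values of single models in the cluster are uncertain.

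**Figure D3:**
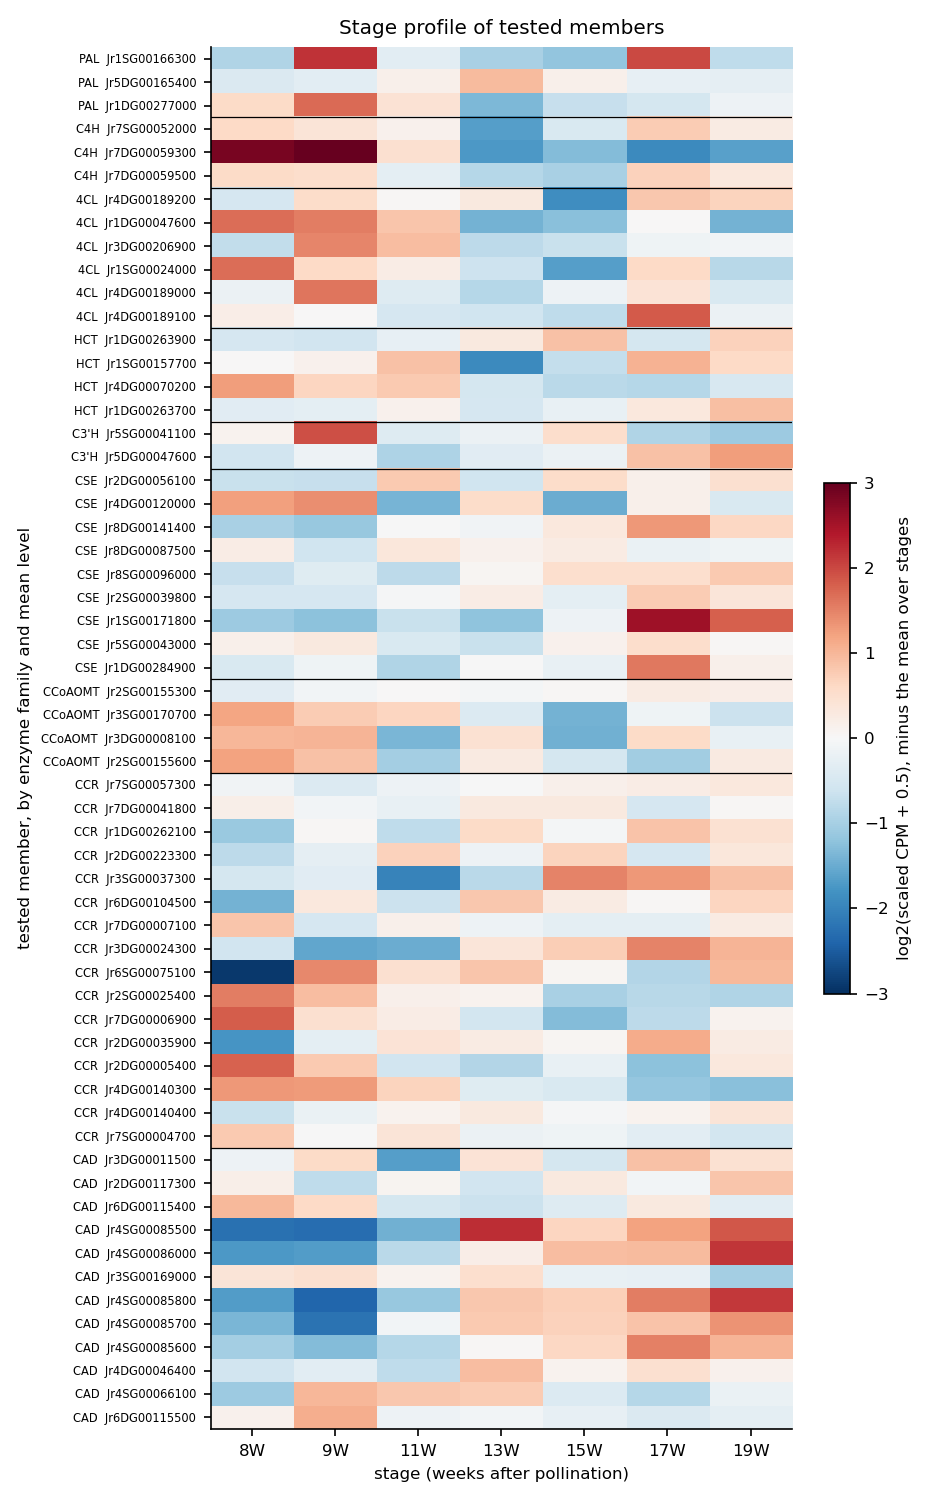
Stage profile of tested members of 9 enzyme families (lines, grouped by family and ordered by mean level) over the 7 stages (columns); colour is the stage mean of log2(scaled CPM + 0.5) minus the member's mean over stages, limited to 3 either way. Neighbouring lines of 1 family often differ in colour, and the CAD genes Jr4SG00085500 and Jr4SG00085800 turn from blue at 8W and 9W to red from 13W on.

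Across the 7 stages, 65 of 66 tested members changed in edgeR's F-test, beside 97.7% of all genes tested, a share near that background. Their range was wide. An F-test call together with at least 2-fold between the highest and the lowest stage was found for 61 of the 66. That is 92.4%, beside 75.7% of all genes. The call together with at least 4-fold was found for 49 of the 66, or 74.2%, beside 40.1% of all genes. Among genes with a mean of at least 10 CPM the shares with the call and at least 4-fold were 58.1% (18 of 31 members) and 26.2%. The difference between these shares has no test here, since members were not drawn at random.

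Members reached their highest stage mean at 17W in 16 cases (24.2%, beside 17.6% of all genes tested), at 8W and at 9W in 14 cases each (21.2%, beside 21.2% and 15.7%), and at 15W in 3 (4.55%, beside 9.04%). Of the 16 members highest at 17W, 5 were CSE, 3 CCR and 2 each C4H, 4CL and CAD. The 1 tested member without a call in the F-test was the CCR gene Jr4DG00140400, with 171 reads in all (edgeR, adjusted p = 0.1). Between 8W and 19W alone it was called, and is counted below among the 9 CCR rises. That log2 change was 2.365, or 1.76 without 8W replicate 1 and 3.622 without 8W replicate 3.

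Between the first and the last stage, 8W and 19W, the members went both ways. Of 66 tested members 32 rose and 25 fell, beside 39.0% and 38.8% of all genes tested (77.8% either way). The median log2 change of the members was 0.29, beside -0.01 over all genes. The members' median was -0.05 with library sizes alone as scaling, beside -0.34 over all genes. With upper-quartile factors it was 0.08, beside -0.22. Its sign thus rests on the scaling, while it stood above the median of all genes under each. At least 2-fold rises numbered 24, or 36.4%, beside 20.8% of all genes, and falls 21, or 31.8%, beside 21.8%. By family, rises outnumbered falls in CAD (8 of 12, 2 fell), CSE (6 of 9, 2 fell), HCT (3 of 4, 1 fell) and CCR (9 of 16, 6 fell). Falls outnumbered rises in CCoAOMT (3 of 4, 1 rose), C4H (2 of 3, none rose) and PAL (1 of 3, none rose), and the counts were equal in 4CL (2 and 2 of 6) and C3'H (1 and 1 of 2). Of the members with their family's KEGG number, 18 of 39 rose and 14 fell, and of those without it 14 of 27 rose and 11 fell.

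By the rule for named genes the largest rises included those of the CAD genes Jr4SG00085500 and Jr4SG00085800, the CCR gene Jr6SG00075100 and the CSE gene Jr1SG00171800. The largest falls included those of the C4H gene Jr7DG00059300, the CCR gene Jr2SG00025400, the CCoAOMT gene Jr3SG00170700 and the CSE gene Jr4DG00120000. So CCR and CSE each had a gene among the largest changes in both directions. Library sizes alone as scaling shifted the median of all genes by over 0.1, to -0.34, and upper-quartile factors to -0.22. Under these scalings 25 and 29 of the 66 tested members rose, beside 6315 and 7115 of the 21707 genes tested. Falls numbered 27 and 26 members, beside 10972 and 9947 of all genes.

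**Figure D4:**
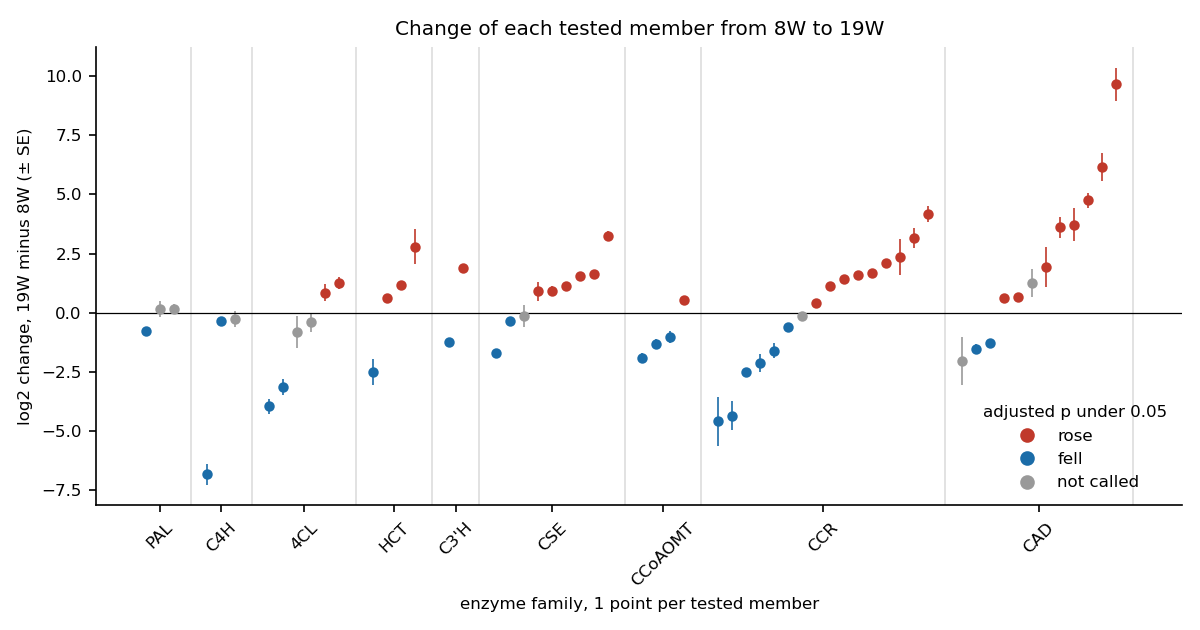
Log2 change from 8W to 19W with its standard error (vertical axis) for each tested member of 9 enzyme families; red points rose, blue points fell and grey points were not called at an adjusted p of 0.05. Rises and falls both occur within most families, and the highest point, Jr4SG00086000, is a fitted value against 0 reads at 8W and not a measured fold.

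Step by step the directions changed by family. From 8W to 9W 20 members rose and 17 fell, beside 34.4% and 31.1% of all genes tested (65.5% either way). No tested C4H or HCT gene was called, both C3'H genes and 2 of 3 PAL genes rose, and of 16 CCR genes 5 rose and 8 fell. From 9W to 11W 20 members rose and 26 fell, beside 34.3% and 31.6% of all genes tested (65.9% either way). With library sizes alone as scaling the split was 15 and 31, beside 6072 and 8438 over all 21707 genes tested. There the median of all genes stood at -0.12. At that step 3 of 6 4CL, both C3'H and 2 of 3 PAL genes fell, the remaining PAL gene rose, and of 9 CSE genes 5 rose and 4 fell. From 11W to 13W 22 members rose and 19 fell, beside 32.1% and 35.0% of all genes tested (67.1% either way). CAD led that step with 7 of 12 genes up and 1 down, while 3 of 6 4CL, 3 of 4 HCT and 2 of 3 C4H genes fell and the remaining HCT gene rose.

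From 13W to 15W 17 members rose and 21 fell, beside 24.8% and 26.3% of all genes tested (51.1% either way). CCoAOMT had 3 of 4 genes down and none up. From 15W to 17W 25 members rose and 11 fell, beside 29.3% and 30.8% of all genes tested (60.1% either way), with a median log2 change of 0.50 over the members and -0.03 over all genes. At least 2-fold rises numbered 20, or 30.3%, beside 12.1% of all genes, and falls 5, or 7.58%, beside 9.77%. The rises took in 4 of 6 4CL genes, 5 of 9 CSE, 2 of 3 C4H and 2 of 4 CCoAOMT genes with no fall in 4CL or CCoAOMT, 2 in CSE and 1 in C4H, and for CAD 3 of 12 with none falling. Of 16 CCR genes 4 rose and 5 fell. Under each alternative run the count of rises lay between 24 and 27 and that of falls between 10 and 12. From 17W to 19W 16 members rose and 23 fell, beside 28.5% and 26.1% of all genes tested (54.5% either way), and 4 of 6 4CL genes fell with none rising.

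Over the 6 steps the directions of the members stood near those of all genes tested. Both a rise and a fall were called for 53 of 66 tested members, or 80.3%, beside 80.8% of all genes. Rises alone were called for 4 members (6.06%, beside 7.04%), falls alone for 8 (12.1%, beside 9.63%) and no change for 1 (1.52%, beside 2.55%). Calls at all 6 steps were made for 5 members, or 7.58%, beside 10.6% of all genes, among them the CAD gene Jr3DG00011500 and the CCR genes Jr1DG00262100, Jr6DG00104500 and Jr2DG00223300. The last 3 were named after their values were seen. Jr1DG00262100 had 18.04, 14.8 and 16.2 at 8W, 31.6, 39.1 and 37.9 at 9W, and 18.8, 22.8 and 20.6 at 11W scaled FPKM. Jr1DG00262100 then had 52.8, 54.05 and 53.4 at 13W, 30.01, 33.6 and 38.6 at 15W, 64.2, 62.6 and 68.01 at 17W, and 43.8, 53.96 and 49.6 at 19W scaled FPKM. Like Jr3DG00011500 it rose to 9W, fell to 11W, rose to 13W, fell to 15W, rose to 17W and fell to 19W. Jr2DG00223300 had 18.6, 18.4 and 20.8 at 8W, 27.2, 28.7 and 26.5 at 9W, and 56.5, 52.9 and 54.1 at 11W scaled FPKM. Jr2DG00223300 then had 28.4, 32.6 and 28.3 at 13W, 54.5, 54.1 and 51.4 at 15W, 23.3, 25.01 and 22.4 at 17W, and 39.9, 41.1 and 45.4 at 19W scaled FPKM, and from 11W on it took the opposite direction at each step.

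A marker of the time of day also varied between stages. LHY, whose transcript peaks near dawn in Arabidopsis, is named for 3 genes, which summed to 12.8 ± 1.45, 222 ± 13.3, 26.1 ± 3.49, 184 ± 8.296, 98.1 ± 1.72, 40.6 ± 1.28 and 178 ± 11.8 scaled FPKM in stage order (SD, n = 3). These sums turned at 9W, 11W, 13W and 17W. All 3 rose between 8W and 19W. The hour of sampling is not in the labels used here. Chlorophyll a-b binding protein genes, 25 in the list, summed to 155 and 149.6 scaled FPKM at 9W and 17W and to 437 at 15W, and 10 of 21 tested rose and 6 fell between 8W and 19W, beside 39.0% and 38.8% of all genes tested. Their part in the turns of the members was not tested.

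The genes before and after the pathway took different courses. Chorismate mutase, arogenate dehydratase and the aldolase that opens the shikimate pathway, 18 genes by name, summed to 516 ± 16.1 scaled FPKM at 8W and 571 ± 21.96 at 19W (SD, n = 3), and of 16 tested 4 rose and 8 fell, beside 39.0% and 38.8% of all genes tested. In that list the chorismate mutase gene Jr2DG00018700 rose by 1.83 ± 0.09 log2 units (SE, edgeR, adjusted p = 4.1e-15), from 85.3 ± 3.56 to 303 ± 21.2 scaled FPKM, and the arogenate dehydratase gene Jr7DG00102600 fell by 0.37 ± 0.07 log2 units (SE, edgeR, adjusted p = 2.49e-05). Laccases, copper enzymes that join monolignols into lignin among other reactions, numbered 41, of which 20 were tested. They summed to 428 ± 7.99, 218 ± 22.97, 32.04 ± 1.07, 15.96 ± 2.45, 11.4 ± 0.281, 8.68 ± 3.29 and 14.2 ± 1.28 scaled FPKM in stage order. Of these 16 fell and 1 rose between 8W and 19W, beside 38.8% and 39.0% of all genes tested. Their median log2 change was -5.06, and -4.24 when the 7 genes without reads in a stage were set to their bound.

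The pair of laccase genes with the highest levels are named putative laccase-9 in Swiss-Prot and carry no enzyme name in NR. Jr8SG00006800 went from 129 ± 0.9403 to 4.73 ± 0.658 scaled FPKM and fell by 4.77 ± 0.19 log2 units (SE, edgeR, adjusted p = 2.72e-14). Jr8DG00009000 went from 59.9 ± 4.28 to 0.675 ± 0.0892 and fell by 6.46 ± 0.23 log2 units (SE, edgeR, adjusted p = 5.65e-15). Class III peroxidases of the types named for lignin, 17 genes with 8 tested, split: 4 rose and 3 fell, beside 39.0% and 38.8% of all genes tested. Peroxidase 4-like Jr1DG00303600 rose by 4.15 ± 0.11 log2 units (SE, edgeR, adjusted p = 2.64e-19), from 12.9 ± 0.869 scaled FPKM at 8W to 395 ± 19 at 15W and 229 ± 9.61 at 19W. Peroxidase 17-like Jr2SG00099400 fell by 2.85 ± 0.11 log2 units (SE, edgeR, adjusted p = 7.06e-17), from 185 ± 8.18 scaled FPKM at 8W.

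**Figure D5:**
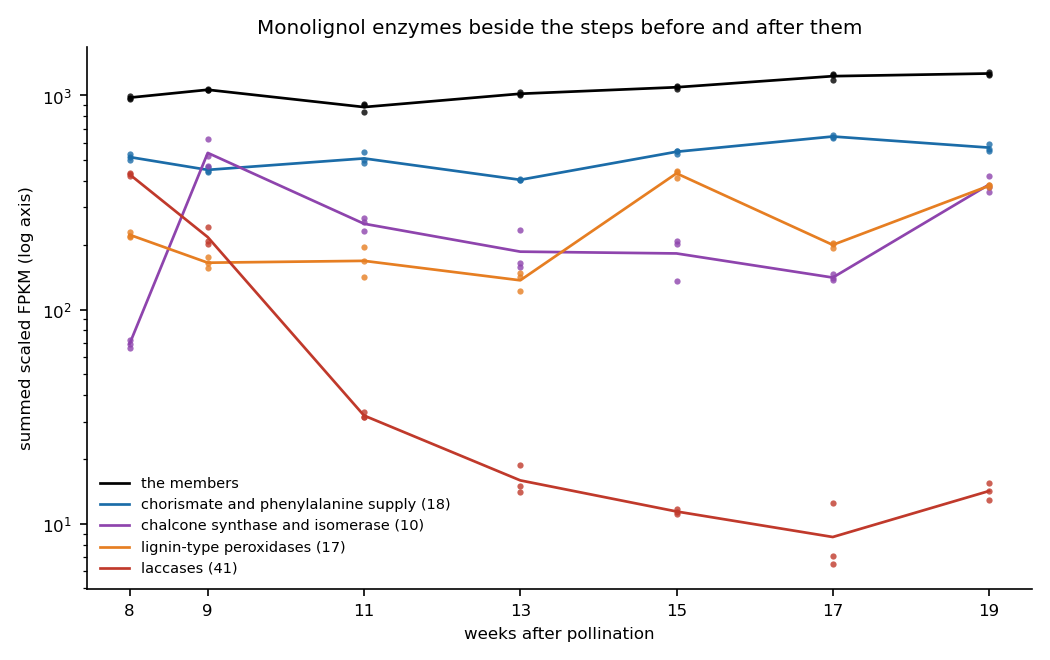
Summed scaled FPKM (vertical log axis) against weeks after pollination for the 103 members and for genes before, beside and after them in the pathway, with the number of genes in brackets; points are libraries, 3 per stage, and lines join stage means. The member sum stays between 883 and 1266, while the laccase sum goes from 428 at 8W to 8.68 at 17W.

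The branch to flavonoids had its highest sum at 9W, as PAL had, but a low one at 17W. Chalcone synthase and isomerase, 10 genes, summed to 69.3 ± 2.77, 539 ± 79.9, 252 ± 17.2, 187 ± 43.02, 183 ± 40.8, 141 ± 4.96 and 384 ± 34.8 scaled FPKM in stage order (SD, n = 3). Of 8 tested 4 rose and 1 fell between 8W and 19W, beside 39.0% and 38.8% of all genes tested. The chalcone synthase genes Jr1DG00116500 and Jr1SG00082400 stood at 202 ± 37.3 and 199 ± 28.01 scaled FPKM at 9W and at 33.9 ± 6.85 and 11.3 ± 3.44 at 17W, the 2 stages at which the PAL gene Jr1SG00166300 was at 38.1 ± 6.73 and 33 ± 0.874. The 13 genes left out as 4-coumarate--CoA ligase-like summed to 133 ± 4.12 scaled FPKM at 8W and 159 ± 5.14 at 19W, above the 4CL sum at every stage, and of 12 tested 4 rose and 4 fell, beside the same shares of all genes. The wider set of 15 CoA ligase-like genes had 14 tested, of which 6 rose and 4 fell, beside the same shares. Its oxalate--CoA ligase-like genes Jr6SG00101100 and Jr6DG00142800 rose by 3.55 and 5.92 on the log2 scale.

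Transcription factors that bear on lignin, by the MYB, NAC and KNAT7 names, numbered 31, of which 15 were tested. Between 8W and 19W 3 rose and 7 fell, beside 39.0% and 38.8% of all genes tested. The list pools genes named transcription repressor MYB4 with others whose names give no direction of action. These counts therefore do not tell whether activation of lignin genes was gained or lost, which was not tested. Jr2DG00241100 and Jr3SG00133800, which share the same Myb-related protein name in Swiss-Prot, led the list in level. Jr2DG00241100 stood at 30.2 ± 0.315 scaled FPKM at 8W and 26.6 ± 5.43 at 19W (log2 change -0.18 ± 0.16 (SE; edgeR, adjusted p = 0.298)), and Jr3SG00133800 fell by 2.97 ± 0.20 log2 units (SE, edgeR, adjusted p = 1.6e-12).

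Markers of lignifying cells moved as well. The list of 27 xylem and secondary wall genes, 13 of which are also in the laccase list, summed to 164 ± 18.6, 87.2 ± 4.19, 74.3 ± 7.57, 41.6 ± 1.17, 42.5 ± 1.13, 95.3 ± 6.11 and 76.3 ± 3.13 scaled FPKM in stage order (SD, n = 3), and 15 of 20 tested were lower and 3 higher at 19W than at 8W by the same test, beside 38.8% and 39.0% of all genes tested. The cysteine protease gene XCP1 (Jr3SG00126500), a mark of water-conducting cells, went from 50 ± 8.52 to 0.863 ± 0.7195 scaled FPKM, while Jr8DG00144500, named irregular xylem 2, rose by 2.38 ± 0.11 log2 units (SE, edgeR, adjusted p = 2.37e-15) and gave 57.4% of the list's sum at 19W. The seed coat list of 31 genes, taken by product name, holds the member Jr7DG00007100. In that list 12 of 21 tested fell and 3 rose, beside the same 38.8% and 39.0% of all genes. The TRANSPARENT TESTA 16 gene Jr3DG00159800 fell by 2.58 ± 0.10 log2 units (SE, edgeR, adjusted p = 1.89e-16). Of 13 tested embryo and kernel genes 12 rose and 1 fell, beside 39.0% and 38.8%. The part of any of these cells in the changes of the members was not tested.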

How the data were processed

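Pellicle RNA was measured in 21 libraries, 3 at each of 7 stages, grouped by the stage in the labels. The deposited table gives 1 read count per gene and library, and per the file headers its FPKM columns were made by the authors; these equal count divided by gene length and library total within a relative deviation of 5.15e-15. Per the submitters' processing notes FastQC, HISAT2, Cufflinks and DESeq2 were used. For genome build, annotation and counting settings the sources used here give nothing, and coordinates are the table's own. The kit keeps strand, per the labels' protocols, but whether counting used it is unknown, and 9 members overlap a gene on the opposite strand.

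Counts were tested in R 4.3.3 with edgeR 4.0.16 (robust quasi-likelihood fit, TMM factors 0.88 to 1.14, filterByExpr with a minimum count of 10, 7 stage means from all 21 libraries). The 21707 genes tested all entered the Benjamini-Hochberg adjustment, and 0.05 was the threshold. Scaled FPKM was computed from the counts with TMM-scaled totals. The fit was tested on simulated data with known changes. DESeq2 1.42.0, other scalings, other filters, a replicate term and each library left out were the alternatives. Floors of 3 reads per library cover counting error only. Replicates of 1 stage differed by more than sampling noise (chi-square per degree of freedom 2.91 to 24.2), so none were merged.

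Named genes are the 2 members of each family with the highest mean scaled FPKM, the 5 largest rises and falls for 19W against 8W and the 2 largest for each of 6 consecutive pairs, taken from called members whose higher stage reached 10 CPM and whose libraries did not overlap, and the 2 highest tested genes of each other pathway list. Genes outside this rule are said to be named after their values were seen. The single seed coat and xylem marker genes are the 2 highest tested genes of their lists by the same rule. Those of the other marker lists are not named singly. The members and all lists were chosen with earlier results of these data known. One family of the rule enters the totals over all members and is not reported here. No sequences are printed, since no ID matched the RefSeq table used here.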

Additional observations from a re-analysis of the deposited data

How the results depend on the processing

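The 15 counts of members called were recomputed under the alternatives, 224 values in all, and 0 moved by over 1.5 times. Members changed over the 7 stages numbered 61 to 71, rises between 8W and 19W 25 to 33 and falls 22 to 27. Over all genes the same settings gave 20768 to 22252 changed, 6315 to 8512 rises and 8163 to 10972 falls. The number of genes tested differed by setting, from 20630 to 26242. With the replicate number as a block, 65 members changed over the stages, and 32 rose and 25 fell between 8W and 19W. Replicate numbers did not pair samples: over 63 same-number pairs the correlation of deviations ran from -0.0838 to 0.0617, and 6 of 21 libraries correlated best with their own number.

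For 90 results on single genes 1249 values were computed. Of these 1206 kept direction and side of the threshold, 30 lost the call, 7 gained it and 6 changed sign. The consecutive-stage values among them were added after seeing the data. All 6 sign changes were uncalled PAL differences between 8W and 19W. Jr1SG00166300 stood at -0.1808 with library sizes alone and -0.05329 with upper-quartile factors, and ran from -0.06649 to 0.3364 when 1 library was left out. Jr5DG00165400 stood at -0.1658 and -0.03861 under these scalings and ran from -0.07744 to 0.2494. The cause was not tested. Members with few reads, such as both F5H genes, are limited by depth.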
